A study of Mus musculus with 12 samples.

Results

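Xdh and 9 other genes of purine salvage and breakdown were followed across the RNA-seq libraries of 2 mouse testis cell lines. The set was Xdh, Pnp, Gda, Ada, Adk, Aprt, Hprt, Nt5e, Nt5c2 and Ampd2, chosen by gene symbol, and all 10 were among the 17995 genes of the deposited table. Xdh was picked because its level differed between shM5 and shNC libraries of C18-4 cells, so that contrast is described here for the 10 genes and not tested. The libraries came from C18-4, an established line derived from mouse spermatogonial stem cells, and from TM4, an established line derived from mouse Sertoli cells, with the strain labelled IRC for both. Each line carried lentiviral shRNA, either a mix of 3 hairpins against Chrm5, the gene of the muscarinic acetylcholine receptor M5 (shM5), or a control hairpin (shNC), and the methods describe stably transfected cells. The 4 groups, C18-4 shNC, C18-4 shM5, TM4 shNC and TM4 shM5, held 3 libraries each. No age or further treatment is given, and the number of clones or cultures behind the 3 libraries of a group is not stated, so p-values measure the spread between these libraries, which may be technical.

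Cells keep their purine pool in balance by making purines from small precursors, by recovering free bases and nucleosides, and by breaking purines down to urate. In breakdown, nucleotidases (Nt5c2 inside the cell, Nt5e at its surface) remove the phosphate of a nucleotide, Ada converts adenosine to inosine, Pnp releases hypoxanthine and guanine from their nucleosides, Gda converts guanine to xanthine, and Xdh, a molybdenum enzyme, oxidises hypoxanthine to xanthine and xanthine to urate. In salvage, Hprt returns hypoxanthine and guanine to nucleotides, Aprt does so for adenine and Adk for adenosine, while Ampd2 converts AMP to IMP. Loss of the salvage enzyme HPRT in people raises urate, and xanthine oxidase is the target of the gout drug allopurinol.

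The stretches just upstream of the start sites of 4 members are shown because these genes mark the extremes of level in both lines, Aprt and Hprt with the highest values and Gda and Nt5e with values near 0. Each runs 5′ to 3′ on the strand of the gene and ends at the base before the start site. The bases that follow were found near the beginning of an annotated transcript for Aprt and Gda. For Hprt and Nt5e they were not, so their start sites rest on RefSeq alone. The sequences are from RefSeq on GRCm38.p6, and cover chr8:122576908-122577157 (minus strand) for Aprt, chrX:52987828-52988077 (plus strand) for Hprt, chr19:21472662-21472911 (minus strand) for Gda and chr9:88327359-88327608 (plus strand) for Nt5e. Capitals mark GC boxes, read as GGGCGG on either strand (CCGCCC on the other), a motif that Sp1-family factors are known to bind.
Aprt: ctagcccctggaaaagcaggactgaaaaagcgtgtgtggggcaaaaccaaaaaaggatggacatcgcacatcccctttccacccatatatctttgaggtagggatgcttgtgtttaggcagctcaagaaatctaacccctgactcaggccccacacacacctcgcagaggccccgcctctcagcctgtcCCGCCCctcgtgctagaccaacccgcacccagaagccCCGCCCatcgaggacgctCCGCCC
Hprt: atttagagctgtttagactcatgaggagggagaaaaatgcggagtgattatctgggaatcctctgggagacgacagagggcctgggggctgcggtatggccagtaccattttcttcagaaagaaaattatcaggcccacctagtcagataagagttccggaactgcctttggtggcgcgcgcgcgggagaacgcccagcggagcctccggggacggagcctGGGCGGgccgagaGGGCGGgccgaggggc
Gda: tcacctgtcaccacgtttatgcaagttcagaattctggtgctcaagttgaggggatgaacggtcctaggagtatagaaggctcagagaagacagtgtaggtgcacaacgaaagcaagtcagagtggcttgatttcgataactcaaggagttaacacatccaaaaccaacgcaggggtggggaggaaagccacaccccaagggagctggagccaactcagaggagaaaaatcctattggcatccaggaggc
Nt5e: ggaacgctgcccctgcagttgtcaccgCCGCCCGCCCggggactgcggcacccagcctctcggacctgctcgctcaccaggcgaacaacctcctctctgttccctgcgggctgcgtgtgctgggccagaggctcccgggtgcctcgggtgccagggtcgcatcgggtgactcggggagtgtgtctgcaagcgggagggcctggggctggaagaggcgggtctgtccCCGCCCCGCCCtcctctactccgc
The window held 3 GC boxes for Aprt, 2 for Hprt, 4 for Nt5e (in 2 overlapping pairs) and 0 for Gda. None of the 4 held a TATA box, read as TATAAA on either strand, which cannot overlap a GC box. Of 27025 genes with a start site in the RefSeq table, 32.9% held a GC box in a window of the same length and 13% held a TATA box. A GC box was thus present upstream of Nt5e, whose mRNA was nearly undetected, as it was upstream of Aprt and Hprt. Entries were matched for 9 of the 10 members. Xdh was not among them.

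Values are RPKM, reads per gene scaled by the authors for gene length and library size, so levels can be compared between genes. In the plot of all 10 genes by library, Aprt was the highest and Gda and Nt5e the lowest in all 4 groups. Aprt stood at 177 ± 27.2 RPKM (SD, n = 3) in C18-4 shNC libraries and 260.0 ± 15.6 in TM4 shNC libraries. Hprt came next at 95.3 ± 9.55 and 118 ± 13.5, and then Adk at 76.3 ± 7.01 and 69.6 ± 7.80. Aprt and Hprt, which salvage free bases, thus lay above every breakdown enzyme in both lines. Adk did so in C18-4 cells and in TM4 shM5 libraries, and overlapped with Xdh in TM4 shNC libraries.

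**Figure D1:**
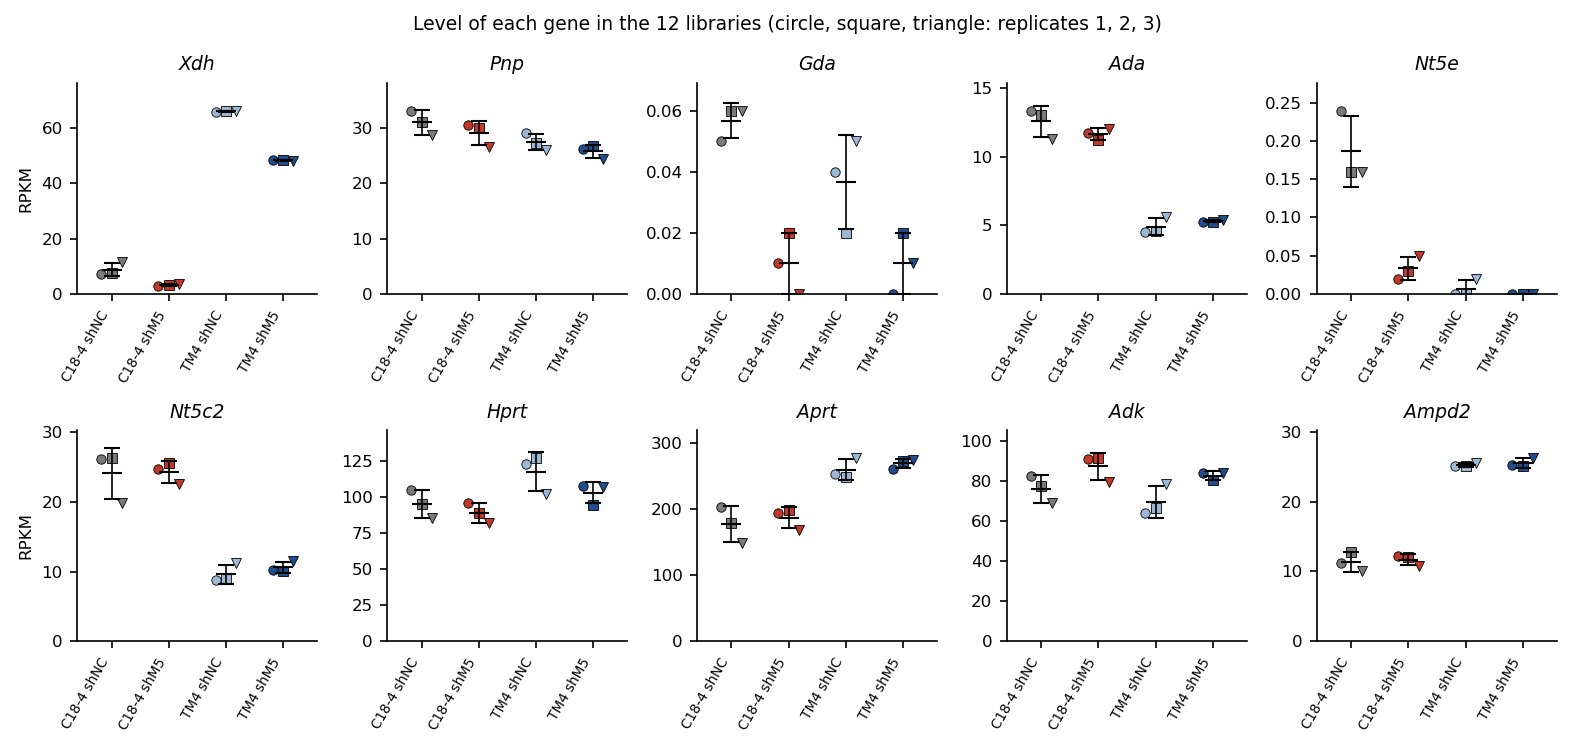
RPKM of each of the 10 genes in the 12 libraries, with 1 point a library, a long dash for the group mean and bars for ± SD (n = 3). Among the 8 genes above 1 RPKM, Xdh, whose C18-4 values chose it, has the largest ratio between the lines. It lies at 65.77 to 66.36 in TM4 shNC and 7.15 to 11.46 in C18-4 shNC libraries. Gda and Nt5e stay under 0.25 RPKM throughout.

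Below these the order of levels differed between the lines. In C18-4 shNC libraries it ran Pnp, Nt5c2, Ada, Ampd2, Xdh, Nt5e and Gda, and the libraries of Ada overlapped with those of Ampd2, and those of Ampd2 with those of Xdh. In TM4 shNC libraries it ran Xdh, Pnp, Ampd2, Nt5c2, Ada, Gda and Nt5e. Xdh thus stood 4th of the 10 in TM4 cells, where its shNC libraries overlapped with those of Adk, and 8th in C18-4 cells. In shM5 libraries Hprt overlapped with Adk, and Ampd2 with Ada, in C18-4 cells, and Pnp overlapped with Ampd2 in TM4 cells. Gda and Nt5e overlapped with each other in every group except C18-4 shNC.

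**Figure D2:**
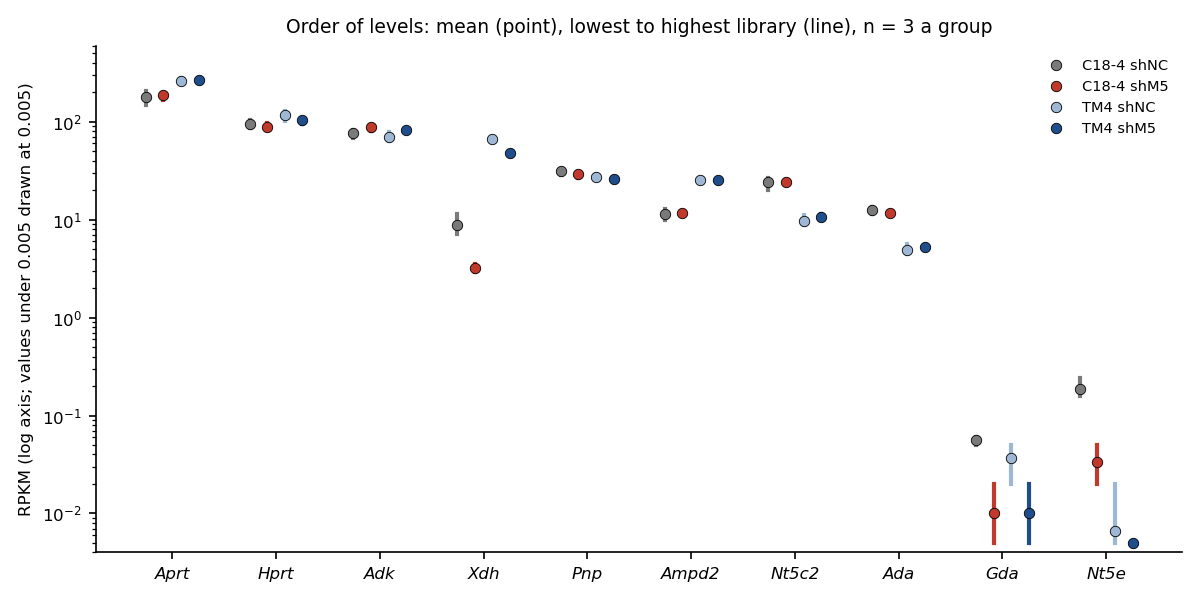
Mean RPKM (points) and lowest to highest library (lines) of the 10 genes in the 4 groups, on a log axis, ordered by their mean in TM4 shNC libraries (n = 3 a group). Aprt, Hprt and Adk lie above 60 RPKM in all groups, and Gda and Nt5e lie at the bottom. Xdh, whose C18-4 values chose it, spans the widest range among the genes above 1 RPKM.

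The libraries themselves limit what follows. The files hold no read numbers, but by the steps between low values 1 RPKM over 1 kb of transcript stood for 13.8 to 14.6 reads, so the libraries were of similar depth. Chrm5 was listed at 0.01 RPKM in C18-4 shNC replicate 2 and TM4 shNC replicate 1 and at 0 in the other 10 libraries, so it checks neither the knockdown nor the labels. C18-4 cells had Uchl1 (76.8 to 140.02 RPKM) but Ret, Zbtb16, Ddx4, Dazl, Kit and Stra8, which mark spermatogonia and germ cells, at 0.05 or less, and carried Wt1, a Sertoli marker, at 53.93 to 72.32. TM4 cells had Sox9 (1.11 to 1.74) but Wt1 at 0.15 or less and Amh at 0.19 or less, so the labels hold only in part by these markers. TM4 shNC replicate 3 stood apart from the other TM4 shNC libraries: the summed RPKM of 14 ATF4 stress-response genes was 1461 in it, 3091 and 3072 in replicates 1 and 2, and 1375 to 1408 in the shM5 libraries. Replicate 3 stood apart in both C18-4 groups too, with 1937 in shNC and 1864 in shM5 against 1282 to 1340 in the other 4.

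Xdh in C18-4 cells was listed at 7.15, 7.59 and 11.46 RPKM in shNC replicates 1, 2 and 3, and at 2.91, 3.14 and 3.50 in shM5 replicates 1, 2 and 3. All shM5 libraries lay below all shNC libraries. The means were 8.73 ± 2.37 and 3.18 ± 0.297 RPKM (SD, n = 3), a 2.64-fold lower level with shM5, or −1.40 on the scale of log2(RPKM + 0.1) used for every difference here. A lower level in a library does not tell fewer expressing cells from less mRNA per cell. Within each group Xdh was highest in replicate 3, the libraries with the higher ATF4 sum. Without shNC replicate 3 the difference was −1.19, and without any 1 other library it lay between −1.53 and −1.34. By the gene lengths and the depth above, these values stand for roughly 464 to 727 reads a library in shNC and 185 to 222 in shM5.

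No other member with a testable level had separate groups in this contrast. Tests across all genes were limited to those averaging 0.5 RPKM or more in the libraries compared, a level that 8 of the 10 members reached in every comparison. Among these 8, the libraries of the groups did not overlap for 1 member, Xdh, in C18-4 cells, where this held for 18.9% of all genes tested, 9.55% with the shM5 libraries lower. The median difference of the 8 was −0.04, and that of all genes −0.0024.

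The salvage genes in C18-4 cells stayed within a narrow range. Adk was listed at 82.74, 77.42 and 68.85 RPKM with shNC and at 90.90, 91.72 and 79.56 with shM5, a difference of 0.20. Its groups overlapped, since shM5 replicate 3 lay below shNC replicate 1, yet within each replicate number the shM5 library was the higher. Hprt differed by −0.09 and Pnp by −0.09, and both were lower with shM5 within each replicate number although their groups overlapped. Aprt differed by 0.08, Ada by −0.11, Nt5c2 by 0.02 and Ampd2 by 0.05. Without shNC replicate 3 the differences of Aprt, Nt5c2 and Ampd2 turned to −0.03, −0.11 and −0.04.

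Gda and Nt5e were below the level needed for a test in both lines. Gda lay between 0 and 0.06 RPKM in all 12 libraries, or about 0 to 5 reads each. Nt5e, the ectonucleotidase CD73, was listed at 0.24, 0.16 and 0.16 RPKM in C18-4 shNC libraries and at 0.02, 0.03 and 0.05 in C18-4 shM5 libraries, which is about 9 to 14 and 1 to 3 reads. In TM4 cells it was at 0.02 in shNC replicate 3 and at 0 in the other 5 libraries. No fold is given at these read numbers.

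The same knockdown was then compared in TM4 cells, whose libraries were not in the contrast that picked Xdh. Earlier results of these data were known when the members were chosen, and TM4 shNC replicate 3 had already been seen to stand apart. Xdh was listed at 65.77, 66.36 and 66.03 RPKM in shNC replicates 1, 2 and 3 and at 48.55, 48.28 and 48.09 in shM5 replicates 1, 2 and 3. The lowest shNC library lay well above the highest shM5 library, and the 3 libraries of a group differed by less than 1 RPKM. The means were 66.1 ± 0.296 and 48.3 ± 0.231 RPKM (SD, n = 3), 1.37-fold lower with shM5, and the difference was −0.45 (SE 0.061, 95% interval −0.60 to −0.30). The unadjusted p of limma was 0.000217, and the adjusted p of 0.192 (Benjamini-Hochberg, over all genes tested) missed the threshold of 0.05, as it did for all 11016 genes, of which 0% passed and 26% had an unadjusted p below 0.05. Without TM4 shNC replicate 3 the difference of Xdh was also −0.45 and its adjusted p 3.46e-05 by limma, when 67.4% of all genes passed. The adjusted p ranged from 6.79e-06 to 0.507 over the alternatives, and the difference from −0.47 to −0.43.

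None of the other 7 members tested passed in TM4 cells either, and 2 of the 8, Xdh and Adk, had an unadjusted p below 0.05. Adk was listed at 63.85, 66.56 and 78.50 RPKM with shNC and 83.86, 80.43 and 84.20 with shM5, all shM5 libraries above all shNC libraries, with a difference of 0.26 (SE 0.094, adjusted p 0.192 by limma). Hprt was listed at 123.49, 127.51 and 102.45 RPKM with shNC and 107.59, 94.77 and 107.25 with shM5, a difference of −0.19 (SE 0.107), and its groups overlapped through shNC replicate 3. The groups did not overlap for 1 member higher and 1 lower of the 8, beside 26.8% of all genes tested, 15.7% higher and 11.1% lower. Aprt, Pnp, Ada, Nt5c2 and Ampd2 differed by −0.09 to 0.14, and each 95% interval included 0. The median difference was 0.03 over the 8 and 0.04 over all genes.

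The result for these genes turned on TM4 shNC replicate 3. Without it 5 of the 8 passed, 3 higher and 2 lower with shM5, beside 36.5% and 30.9% of all genes. Ada (0.21), Adk (0.34) and Nt5c2 (0.26) were the higher ones, and Xdh (−0.45) and Hprt (−0.28) the lower ones.

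**Figure D3:**
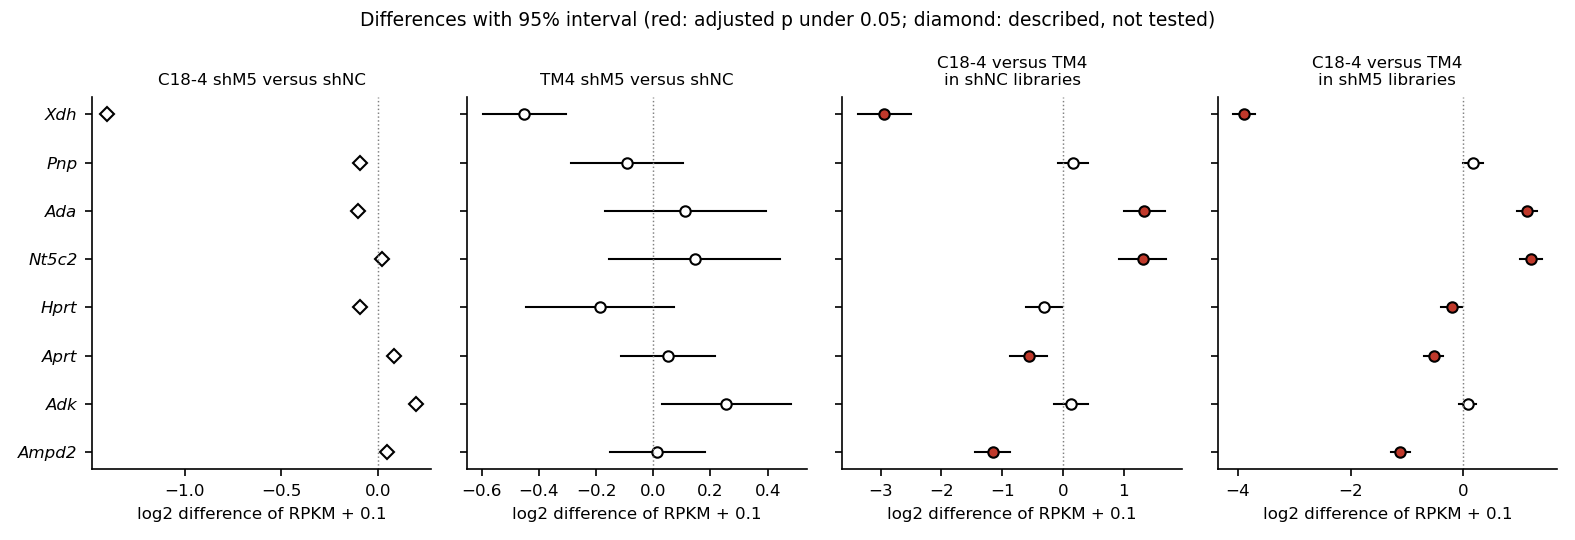
Differences of log2(RPKM + 0.1) for the 8 members with testable levels in 4 comparisons, with 95% intervals (lines) where a test was made, red where the adjusted p of limma was under 0.05, and diamonds for the contrast that was described only; each panel has its own axis range. Xdh lies at −1.40, −0.45, −2.94 and −3.89. Its C18-4 values chose it, so its rank in the panels with C18-4 cells is set in part by that choice. Its intervals and red points between the lines are drawn but not read as tests. Ada and Nt5c2 lie opposite to Xdh, Ampd2 and Aprt between the lines.

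Xdh took an unusual position in that library, a pattern singled out after the values were seen. In 4821 genes the mean of the shM5 libraries differed from the mean of shNC replicates 1 and 2 by at least 0.4 on the log2 scale, and in 95.5% of them shNC replicate 3 lay nearer to the shM5 mean. Its median position was 0.945 of the way from shNC replicates 1 and 2 to shM5. Xdh was among the 215 genes (4.46%) for which it lay nearer to shNC replicates 1 and 2. For Xdh this library stayed with them, at 0.002 of the way, a log2 difference of −0.0007. No other gene of the 4821 had so small a share in absolute size. The noise of read counting was not weighed, so nothing is read from that rank. The other members tested followed the library, but all had shM5 differences under 0.4 and so are not among the 4821. Hprt was at 1.03 of the way, Adk at 0.776 and Nt5c2 at 1.31. The ATF4 sums were 3091, 3072 and 1461 in shNC replicates 1, 2 and 3, and Xdh was at 65.77, 66.36 and 66.03 RPKM. Only replicate 3 of these libraries had the low sum. In C18-4 cells Xdh was highest in the replicate 3 libraries, which had the higher sums. Whether Xdh depends on the stress state was not tested. The difference of Xdh from shM5 in TM4 cells was similar with and without replicate 3.

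**Figure D4:**
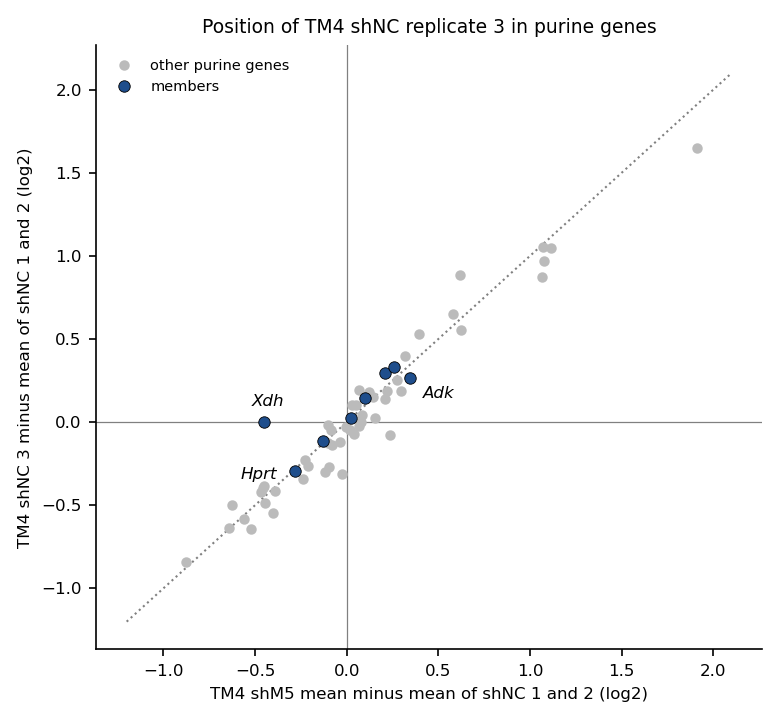
Difference of TM4 shNC replicate 3 from the mean of shNC replicates 1 and 2 (vertical axis, log2) against the difference of the TM4 shM5 mean from the same mean (horizontal axis, log2), for the 8 members (blue) and the other purine genes tested (grey). Both axes subtract the same 2 libraries, so points tend to the dotted line of equality where replicate 3 resembles shM5; Xdh lies on the zero line, at −0.45 across and 0.00 up.

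The size of the difference with shM5 was set side by side between the lines. It was −1.40 for Xdh in C18-4 cells and −0.45 in TM4 cells, a gap of −0.95 between the lines on the log2 scale, which moved to −0.74 without C18-4 shNC replicate 3 and to −0.75 with a pseudocount of 1 RPKM. Ada followed at −0.22, which moved to −0.32 without TM4 shNC replicate 3, and the other 6 members lay within 0.13 of 0. Of these, Nt5c2 moved from −0.12 to −0.26 without C18-4 shNC replicate 3 and to −0.24 without TM4 shNC replicate 3, and Hprt from 0.09 to 0.19 without the latter. No test is given, because 1 side of the gap is the contrast that chose Xdh.

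The 2 lines were also compared with each other, first in the shNC libraries. Xdh was 7.66-fold lower in C18-4 cells, with a difference of −2.94 (SE 0.184). Its C18-4 values are those that chose it, so no p-value is given for it between the lines and its call is only counted. The 3 C18-4 libraries lay at 7.15 to 11.46 RPKM and the 3 TM4 libraries at 65.77 to 66.36, with no overlap. Of the 8 members, 2 were higher and 3 lower in C18-4 cells, beside 34.7% and 20.5% of all 11810 genes tested, 55.2% in all. The share of members that passed was thus close to that of all genes.

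Ada and Nt5c2, both upstream of Pnp and Xdh in breakdown, were the 2 that were higher in C18-4 cells. Ada was listed at 13.35, 13.05 and 11.29 RPKM in C18-4 and 4.51, 4.58 and 5.60 in TM4 shNC libraries, a 2.54-fold difference (1.34, SE 0.145, adjusted p 0.000257 by limma). Nt5c2 was listed at 26.17, 26.36 and 19.91 RPKM against 8.75, 8.93 and 11.17, a 2.49-fold difference (1.32, SE 0.164). Pnp, the step between them and Xdh, was listed at 33.22, 31.11 and 28.83 RPKM against 29.09, 27.39 and 26.05, and its difference of 0.17 had a 95% interval from −0.07 to 0.42. Pnp did not pass the test, and Xdh, the last of these enzymes, was lower in C18-4 cells, whose values chose it. The share of members that passed was close to that of all genes. No pattern along breakdown is therefore read from these differences, and none was tested.

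Ampd2 and Aprt joined Xdh on the lower side. Ampd2 was listed at 11.22, 12.83 and 10.02 RPKM in C18-4 and 25.17, 25.07 and 25.57 in TM4 shNC libraries, a difference of −1.15 (SE 0.123, adjusted p 0.000244 by limma). Aprt was listed at 203.53, 178.94 and 149.24 RPKM against 253.46, 248.72 and 277.83, a difference of −0.56 (SE 0.130, adjusted p 0.00935 by limma). The groups did not overlap for either gene, nor for Xdh, Ada and Nt5c2, which makes 5 of 8 beside 63.6% of all genes. For Adk the difference of 0.13 had an interval from −0.15 to 0.42. For Hprt it was −0.30 (adjusted p 0.0762 by limma), and Hprt passed without TM4 shNC replicate 3 (−0.40, adjusted p 0.0122 by limma).

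The shM5 libraries, which share no sample with the shNC libraries, gave the line differences a second time. Xdh was 14.8-fold lower in C18-4 cells there (−3.89, SE 0.083). The C18-4 values that chose Xdh enter both line comparisons, so its wider gap with shM5 is set in part by that choice and nothing is read from it. For the same reason its calls, though counted, are not independent of the choice. Of the 8 members, 2 were higher, Nt5c2 (1.19) and Ada (1.13), and 4 were lower, Xdh, Ampd2 (−1.12), Aprt (−0.53) and Hprt (−0.21), beside 42.5% and 29% of all genes tested, 71.5% in all. The groups did not overlap for 5 of the 8, beside 76.6% of all genes. The call of Hprt, with an adjusted p of 0.0388 by limma, was lost in 8 alternatives, at adjusted p-values of up to 0.127. Adk (0.07) and Pnp (0.17) did not pass. Ada, Nt5c2, Ampd2 and Aprt kept direction and call in both comparisons under every alternative run, and Xdh kept its direction. The median of all genes was 0.15 in the shNC and 0.12 in the shM5 comparison, against −0.09 and −0.07 for the 8 members. Quantile normalization brought that of all genes to −0.01 and −0.02 and turned the split of all genes called from 4095 higher and 2422 lower to 3281 and 3357 with shNC, and from 4986 and 3401 to 4119 and 4310 with shM5.

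A wider list of purine genes was read beside the members, 77 of 85 named genes being in the table. In C18-4 cells 1 of the 54 tested passed, beside 0.586% of all genes. It was Alpl, an alkaline phosphatase that can remove phosphate from nucleotides. Alpl fell with shM5 from 5.60, 5.15 and 8.45 RPKM to 2.06, 2.08 and 1.92 (−1.58, SE 0.195, adjusted p 0.0367 by limma). Its groups did not overlap, and like Xdh it was highest in shNC replicate 3. Without that library its difference was −1.37 (adjusted p 0.0137 by limma), and it no longer passed when any of the other 5 libraries was left out.

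With the replicate number as a block, which the C18-4 libraries warranted, 11 of the 54 passed, beside 11.9% of all genes, 5 higher and 6 lower with shM5 beside 5.21% and 6.73% of all genes. These were named after their values were seen. Higher were Nt5c (0.37), a cytosolic nucleotidase, Aox1 (0.65), an aldehyde oxidase of the same molybdenum enzyme family as Xdh, the reductase gene Gmpr2 (0.32), the PRPP synthetase partner Prpsap1 (0.23) and the urate exporter Abcg2 (0.21). Lower were Alpl, the equilibrative nucleoside transporter Slc29a1 (−0.54), the adenylate kinase family genes Ak4 (−0.65) and Ak3 (−0.20), Paics (−0.23) of purine synthesis and Ahcyl1 (−0.24). Slc29a1 was listed at 54.09, 52.43 and 58.06 RPKM with shNC and 34.38, 36.38 and 42.36 with shM5, with no overlap. Aox1 was listed at 1.78, 1.78 and 2.17 with shNC and 2.92, 3.23 and 2.96 with shM5, the opposite order to Xdh.

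In TM4 cells 0 of 50 passed by limma and 13 had an unadjusted p below 0.05, beside 26% of all genes. Without TM4 shNC replicate 3, 31 passed, 17 higher and 14 lower, beside 67.4% of all genes. The difference of the shM5 effect between the lines passed by limma for 0 of 54, beside 0.102% of all genes. An unadjusted p below 0.05 was found for 11 of them, beside 20.9% of all genes. The difference passed for 17 without that library, beside 38% of all genes.

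**Figure D5:**
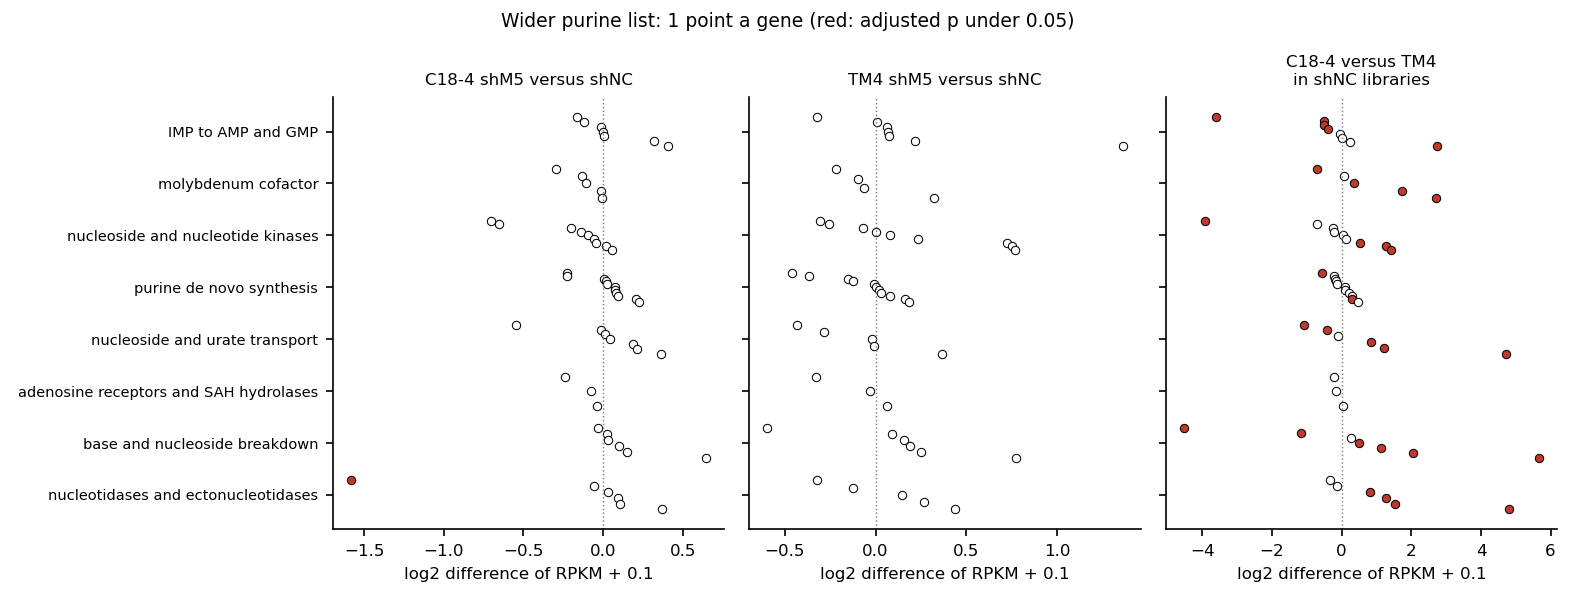
Difference of log2(RPKM + 0.1) for each gene of the wider purine list, by role, in C18-4 shM5 against shNC, TM4 shM5 against shNC and C18-4 against TM4 in shNC libraries, red where the adjusted p of limma was under 0.05; each panel has its own axis range. There is 1 red point in the first panel, Alpl, none in the second and 30 in the third.

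Between the lines in shNC libraries 30 of 55 passed, 19 higher and 11 lower in C18-4 cells, beside 34.7% and 20.5% of all genes. Of the 30, Adal, Alpl, Aox1, Mocos, Slc29a4 and Urah reached the level for a test through 1 line alone, so for these 6 only levels are given. The other 24 were among 48 genes at 0.5 RPKM or more in both lines, 14 higher and 10 lower in C18-4 cells. Adal, an adenosine deaminase-like enzyme, was at 11.8 ± 2.53 RPKM in C18-4 and 0.133 ± 0.0404 in TM4 shNC libraries (SD, n = 3), and Alpl at 6.40 ± 1.79 and 0.127 ± 0.0252. Mocos, which sulfurates the molybdenum cofactor that Xdh and the aldehyde oxidases need, was at 2.60 ± 1.07 and 0.293 ± 0.0306 RPKM, and Aox1 at 1.91 ± 0.225 and 0.410 ± 0.205, the opposite order to Xdh. Slc29a4, a monoamine and adenosine transporter listed at 0 in all TM4 shNC libraries, had 2.32, 2.49 and 2.86 RPKM in C18-4 shNC libraries. Gmpr was higher by 2.75, and its TM4 shNC level was 1.54, 1.35 and 4.74 RPKM, highest in replicate 3.

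Urah of urate breakdown was at 0.11 RPKM in 1 C18-4 shNC library and 0 in the other 2, and at 2.25 to 3.24 in TM4 shNC libraries. Lower in C18-4 cells were the adenylate kinase Ak5 (−3.91), the AMP deaminase Ampd3 (−3.61), the tRNA adenosine deaminase Adat1 (−1.17), the transporter Slc29a2 (−1.09) and Gphn (−0.70), a molybdenum cofactor enzyme whose call was lost with the replicate block (adjusted p 0.0716 by limma). Ampd3 thus had the direction of Ampd2. In the shM5 libraries 41 of 54 passed, 23 higher and 18 lower, beside 42.5% and 29% of all genes, and 35 of these 41 were at 0.5 RPKM or more in both lines.

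Of the relatives of Xdh, Aox1 was the only aldehyde oxidase among those found that lay above 0.1 RPKM. At 2.92 to 3.23 RPKM in C18-4 shM5 libraries it stood at about the level of Xdh there (2.91 to 3.50). Aox2 and Aox4 lay between 0 and 0.06 RPKM in all libraries. Aox3 was looked for by symbol and not found among the genes listed, so its level is not known. Uox, which breaks urate down, was at 0 in all C18-4 libraries and at 0 to 0.24 RPKM in TM4 libraries. Pnp2, a near-identical neighbour of Pnp, was listed at 0 in all 12 libraries, so reads of either may have been counted for Pnp, and Hprt and Aprt values could likewise hold reads shared with processed copies.

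Genes whose levels were most like that of Xdh were ranked by Pearson's r of log2(RPKM + 0.1) among genes averaging 5 RPKM or more. Over all 12 libraries, which share the line difference, the first 5 of 8768 genes were Slpi (0.993), Rarg (0.99), Cachd1 (0.99), Aebp1 (0.989) and Lpgat1 (0.989). The 12 libraries form 2 clusters, the lines, so these values mostly describe that difference. Over the 6 C18-4 libraries they were Timp2 (0.999), Sacm1l (0.997), Pold2 (0.995), Fam114a1 (0.995) and Gm42102 (0.991) of 8783 genes. These are the libraries that chose Xdh, and the top values of so many genes over 6 libraries are high by selection. Over the 6 TM4 libraries the first 5 of 8392 genes were others, Cxcl1 (0.989), C77080 (0.976), Bicd2 (0.974), Usp30 (0.97) and Rgma (0.968). Among the members, Ampd2 was the most like Xdh over the 12 libraries (0.923) and Nt5c2 the most opposite (−0.952). Within the C18-4 libraries no member was above 0.31 and Adk was the lowest at −0.855.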

How the data were processed

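The 12 libraries were grouped by their labels (C3NC, CM5, TM3NC and TMM5, read with the study's methods as C18-4 shNC, C18-4 shM5, TM4 shNC and TM4 shM5). The authors enriched mRNA with oligo(dT), mapped reads to reference genes with SOAPaligner and deposited RPKM with 2 decimals; build, annotation and use of strand are not given in the sources used here. The depth behind each value was therefore estimated from the steps between low values of 74 to 103 genes with 1 transcript.

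log2(RPKM + 0.1) was fitted with limma 3.58.1 (R 4.3.3) for genes averaging 0.5 RPKM or more, with a mean-variance trend, Benjamini-Hochberg adjustment over all genes tested and a threshold of 0.05. The scale understates changes of low genes. Summaries used Python 3.11.15 and pandas 2.3.3. Tested on simulated data, a log2 change of 1 in 200 genes was recovered in 69.5% (C18-4, 11640 genes), 81% (TM4, 11018 genes), 61% (lines in shNC, 11027 genes), 91% (lines in shM5, 10988 genes) and 56% (difference between the lines, 11794 genes), with 8, 47, 26, 29 and 28 genes called in error. The changed genes were drawn above a higher minimum level than 0.5 RPKM, and noise was drawn separately for each gene. A whole library standing apart, as TM4 shNC replicate 3 did, was thus not simulated, and these shares may not hold for the real libraries.

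Members and lists were chosen with earlier results of these data known. Named genes were the members, Pnp2 and the aldehyde oxidases, up to 6 wider-list genes per direction past the threshold with a mean of at least 1 RPKM, the 5 genes most like Xdh, Chrm5 and cell type markers. The main fits used no replicate block. Same-numbered C18-4 libraries deviated together across genes (r = 0.439, 0.409 and 0.631), so a block by number was run as an alternative. Numbers 1 and 2 also correlated crosswise (0.341 and 0.345), and the labels do not say that equal numbers are pairs. TM4 libraries (0.049 to 0.127) and the lines (−0.303 to −0.054) did not pair. Alternatives were another pseudocount, no filter, other scalings, no trend, the block, 1 fit of all libraries and leaving libraries out. RefSeq on GRCm38.p6 held 17874 of the 17995 gene identifiers.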

Additional observations from a re-analysis of the deposited data

How the results depend on the processing

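Of the counts and Xdh differences that answer a comparison, 135 kept their direction and side of the threshold and 21 did not. In C18-4 cells the wider list had 1 call as reported, 0 with no filter on low values, 2 with median centring, 11 with the replicate block, 15 with number 3 left out of both groups, and 0 to 1 when 1 library was left out. With number 3 left out, 1482 higher and 1547 lower of all 11549 genes tested passed. In TM4 cells, leaving out 1 library gave 0 to 5 members and 0 to 31 wider-list genes, the higher values without shNC replicate 3, where Xdh was at −0.4509 (−0.4542 to −0.4473 without another library). Without number 3 of both groups these were 6 members, 33 wider-list genes and −0.4476 for Xdh. Of all 11030 genes tested there, 4403 higher and 3613 lower passed, and 67.4% of all genes passed without shNC replicate 3 alone. Between the lines with shNC, leaving out both replicates 3, an alternative chosen after seeing the data, gave 8 members and 47 wider-list genes. Beside these, 5579 higher and 4156 lower of all 11726 genes tested passed, so most genes did. For the difference of the shM5 effect, the wider list had 1 call with a pseudocount of 1 RPKM, 1 with quantile normalization, 0 to 17 when 1 library was left out and 31 without number 3 of each group, also chosen after seeing the data. In the last of these, 3124 higher and 3898 lower of all 11724 genes tested passed. Among tested differences, these changed sign, none of them past the threshold: Ampd2 in TM4 cells with median centring (−0.0034) and when 1 library was left out (−0.0068 to 0.0273), and Adk between the lines with shM5 under median centring (−0.0214). Among untested ones, Nt5c2, Ampd2 and Aprt in C18-4 cells and the gaps between the lines of Pnp, Adk, Ampd2 and Aprt, all small, changed sign when 1 library was left out. Fewer samples or genes enter some of these fits; for the others the cause was not tested. Pairing of the replicate numbers was weak outside C18-4 cells, and the block gave 0 of 8 members in TM4 cells and 5 of 8 between the lines with either hairpin, so beyond Hprt with shM5, whose call it ended, it changed no call of a member there. With the block, 0 of all 11016 genes passed in TM4 cells. Between the lines 3482 higher and 1959 lower of 11810 passed with shNC, and 4688 and 3172 of 11737 with shM5. Values under about 0.1 RPKM rest on a handful of reads.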
